A study of Mus musculus with 5 samples.

Results

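The cells described here are 439 of 7312 cells of the common myeloid progenitor (CMP) library, or 6.00% (exact Clopper-Pearson 95% interval 5.47% to 6.57%), that carried monocyte genes. A cell was a member when its unique molecular identifiers (UMIs, 1 per captured RNA molecule) of Ly86, Ms4a6c and Csf1r summed to at least 5 and it held fewer than 3 UMIs of Dntt, a gene of lymphoid priming. The members were therefore chosen on measured values, and the 3 gate genes and Dntt are given as a description only. The 5077 CMP cells with none of the 3 gate transcripts (sum-0 cells) served as the comparison within the library. The same gate was applied to the granulocyte-monocyte progenitor (GMP) libraries.

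All cells came from bone marrow of wild-type Balb/C mice aged 8 to 12 weeks, enriched for c-Kit and sorted as lineage-negative, c-Kit-positive cells, with no treatment. The lineage antibodies were against Ter-119, Gr-1, CD11b, B220, CD4 and CD8. CMP, with 1 library, was sorted as Sca-1-negative, CD34-positive and low for the Fc receptors CD16/32. GMP, with 3 libraries, was sorted in the same way but as high for CD16/32, and the lymphoid-primed multipotent progenitor (LMPP), with 1 library, by the presence of Sca-1, CD34 and Flt3. The labels do not say how many animals gave each library, nor whether the GMP libraries, called biological replicates, came from separate animals. The p-values therefore measure the spread between these libraries, which may be technical. Where the library was a block, they measure the spread of the gate difference over the GMP libraries.

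Monocytes arise in the bone marrow from myeloid progenitors, and their formation needs the transcription factor Irf8 and, for survival and growth, the receptor Csf1r for macrophage colony-stimulating factor. Progenitors on this path gain transcripts of monocyte surface proteins, such as the chemokine receptor Ccr2 and the Ly6C antigen, while many still hold transcripts of the primary granule proteases that monocyte and neutrophil precursors share. Ly86 encodes the secreted partner of the Toll-like-receptor-related protein Cd180, and Ms4a6c a membrane protein of the MS4A family.

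The 5 libraries held 7389 (CMP), 9510, 9993 and 8021 (GMP replicates 1, 2 and 3) and 8116 (LMPP) barcodes with 90067195 to 137141095 UMIs each, and 42104 cells passed the filter on genes, UMIs and mitochondrial RNA. Members were deeper than sum-0 cells, with a median of 19078 UMIs and 4127 genes in members against 9258 UMIs and 2869 genes in sum-0 cells, and the part of depth in the results was not tested except where a depth-matched value is given. Mitochondrial UMIs made up a median 1.11% in members and 1.10% in sum-0 cells. A simulated-doublet caller marked 28 members (6.38%) and 234 sum-0 cells (4.61%), against 5.85% of all CMP cells. No member shared its barcode with a GMP library. CMP has a single library, so a difference between cells of CMP has no replicate check, and its intervals cover counting error only.

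The gate genes themselves were unequal in the members. Ms4a6c gave 4154 of the UMIs that placed cells in the gate (76.5%), Ly86 717 (13.2%) and Csf1r 556 (10.2%). All 439 members held Ms4a6c, 317 held Ly86 (72.2%) and 272 held Csf1r (62.0%). All 3 transcripts were seen together in 201 members (45.8%), and 51 (11.6%) entered on Ms4a6c alone. The median gate sum was 11 UMIs and the highest 41. Dntt was at 0 in 277 members and at 1 or 2 UMIs in 162. Ms4a6c has close paralogs, Ms4a6b and Ms4a6d, among which reads could be divided.

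Gated cells were a smaller share of CMP than of GMP. The gate held 6.00% of CMP cells, against 26.5%, 27.2% and 36.4% of GMP replicates 1, 2 and 3 (mean 30.03% ± 5.57, SD, n = 3), and 1.24% of LMPP cells. Every GMP library lay above the CMP library, a difference that was not tested. Levels of the gate genes inside the gate are set in part by the rule and are a description. Levels are given as CPM, the UMIs of a gene scaled to a fixed total per set of cells. Ms4a6c reached 465 CPM in CMP members and 440, 444 and 441 CPM in GMP gated cells. Ly86 was at 80.2 CPM in members and 83.9, 71.7 and 69.8 CPM in GMP gated cells, and Csf1r at 62.2 CPM in members and 54.8, 48.6 and 54.4 CPM in GMP gated cells.

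Values just inside and outside the threshold were close for Irf8 and further apart for Elane. The 45 members with a gate sum of exactly 5 held 416 CPM of Irf8, 88.3 CPM of F13a1 and 988 CPM of Elane, the neutrophil elastase gene. The 57 CMP cells with a sum of 4 held 450 CPM of Irf8, 60.8 CPM of F13a1 and 320 CPM of Elane. MHC class II genes, Cd74 among them, summed to 633 CPM in these 57 cells and 239 CPM in the 45 members. Cd74 itself was at 212 and 1.24 CPM, so the 2 sets differ in make-up, and its part in the other values was not tested. A further 58 CMP cells had a gate sum of 5 or more but at least 3 Dntt UMIs and were left out by the rule. Those 58 cells held 687 CPM of Irf8, 193 CPM of F13a1 and 444 CPM of Elane, and their lymphoid-primed and B cell genes summed to 400 CPM, against 168 CPM in the members.

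The promoters of Ms4a6c, the gate gene that gave most UMIs, and of Ccr2 and Ly6c2, monocyte genes that were high in the members, are given as 250 bases before the RefSeq transcription start in GRCm38.p6, 5′ to 3′ on the gene's strand. Of the 8 genes looked for (the 3 gate genes, Irf8, Ccr2, Ly6c2, F13a1 and Emb), 7 had an entry. Ms4a6c lies at chr19:11469118-11469367 on the plus strand, Ccr2 at chr9:124101933-124102182 on the plus strand and Ly6c2 at chr15:75111972-75112221 on the minus strand. Capitals mark a motif match.
Ms4a6c: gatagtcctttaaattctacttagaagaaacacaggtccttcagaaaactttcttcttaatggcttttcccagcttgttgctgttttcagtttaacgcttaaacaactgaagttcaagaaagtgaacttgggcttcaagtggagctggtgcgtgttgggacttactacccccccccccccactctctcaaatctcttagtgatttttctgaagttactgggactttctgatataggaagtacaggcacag
Ccr2: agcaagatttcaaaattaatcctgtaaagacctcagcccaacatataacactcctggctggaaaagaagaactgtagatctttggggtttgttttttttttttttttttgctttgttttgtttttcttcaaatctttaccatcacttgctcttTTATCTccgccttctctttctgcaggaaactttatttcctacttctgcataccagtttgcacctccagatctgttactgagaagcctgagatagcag
Ly6c2: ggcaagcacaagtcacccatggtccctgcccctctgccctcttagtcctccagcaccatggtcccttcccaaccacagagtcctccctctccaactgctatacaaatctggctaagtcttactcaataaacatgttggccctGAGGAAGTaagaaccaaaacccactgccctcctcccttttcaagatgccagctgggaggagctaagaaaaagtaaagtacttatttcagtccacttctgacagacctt
The windows, searched on both strands, ran to 50 bases after the start. The motifs were PU.1 (GAGGAAGT), C/EBP (TTGCNNAA), AP-1 (TGANTCA) and the ETS-IRF composite. The GATA motif was read as AGATAA. No match of a motif overlapped that of another in these genes. Over all 32851 promoter windows the PU.1 letters were found in 3.20%, C/EBP in 10.8%, AP-1 in 7.81%, GATA in 11.2% and the composite in 2.72%. Ly6c2 held the PU.1 letters 108 to 101 bases before the start used here and again from 26 to 33 after it, outside the stretch shown. Counted from its other start, the same matches lay 142 to 135 and 8 to 1 bases before it. Ccr2 held the reverse of the GATA letters 97 to 92 bases before its start, and F13a1 the PU.1 letters 14 to 21 bases after 1 of its starts. No match to any of the 5 motifs was found in the windows of Ly86, Ms4a6c, Irf8 or Emb.

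The 2 label markers outside the gate were both high in the members. Irf8 was at 609 CPM in members and 55.4 CPM in sum-0 cells, a ratio of 11.0 (exact Poisson 95% interval 10.5 to 11.5). Ccr2 was at 51.1 CPM in members and 2.39 CPM in sum-0 cells, a ratio of 21.4 (17.6 to 26.2). Among the members, Irf8 was seen in 98.9% of cells with a median of 9 UMIs, and Ccr2 in 51.9%, with no member above 10 UMIs. When every cell was thinned to 3000 UMIs, which 112 sum-0 cells did not reach, 73.3% of members held Irf8 (95% interval 69.0% to 77.4%), against 11.4% of sum-0 cells. Ccr2 was then seen in 15.7% of members (12.4% to 19.5%), against 0.56% of sum-0 cells. In the 767 CMP cells with at least 5 UMIs of Klf1, Ermap and Car1 (erythroid cells, which should lack these genes; median 12654 UMIs), the thinned shares were 4.43% for Irf8 and 0.13% for Ccr2. Without thinning, Irf8 was seen in 27.9% of sum-0 cells and 21.1% of erythroid cells, and Ccr2 in 2.21% of sum-0 cells and 2.35% of erythroid cells. All these shares lay below those of the members.

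Across all genes at 20 CPM or more in either set, 140 of 5727 were at least 2-fold higher in members than in sum-0 cells (2.44%) and 329 at least 2-fold lower (5.74%), with a median log2 ratio of -0.07. Against sum-0 cells matched by total UMIs, 143 were higher and 301 lower. Since the same cells were chosen on 3 of these transcripts, the counts are a description. The monocyte list had 28 genes, all detected in the members, and 18 reached 20 CPM. Of these, 15 were at least 2-fold higher in the members and none 2-fold lower, with a median log2 ratio of 2.97, and the summed level was 2627 CPM in members and 583 CPM in sum-0 cells. Against sum-0 cells matched by total UMIs the count was again 15 of 18. The sum over members held monocyte transcripts beside the gate genes, while genes of mature macrophages were near 0 and granule genes were high as well. The list, chosen with earlier results of these data known, holds the label markers Irf8 and Ccr2. Its counts describe the members and do not test their name.

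F13a1, the A subunit of coagulation factor XIII that circulating monocytes carry, was at 271 CPM in members and 4.78 CPM in sum-0 cells. Ly6c2, which encodes the Ly6C antigen of inflammatory monocytes and may share reads with Ly6c1, was at 57.1 CPM in members and 0.625 CPM in sum-0 cells. Emb, which encodes the membrane glycoprotein embigin, was at 303 CPM in members and 59.6 CPM in sum-0 cells. F13a1 was seen in 379 of 439 members and Ly6c2 in 174. Slpi, a secreted inhibitor of neutrophil elastase, was at 286 CPM in members and 27.9 CPM in sum-0 cells, and Clec12a, an inhibitory C-type lectin, at 254 CPM in members and 35.5 CPM in sum-0 cells. Tifab, a regulator of innate signalling, was at 79.2 CPM in members and 6.38 CPM in sum-0 cells. Zeb2, a transcription factor of monocyte and dendritic cell development, differed little, with 259 CPM in members and 178 CPM in sum-0 cells. Klf4, a transcription factor of the last steps to the monocyte and named here after its values were seen, was at 11.5 CPM in members and 15.7 CPM in sum-0 cells.

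Receptors and enzymes of phagocytes were also higher in the members. Of 17 innate sensing genes, 16 were detected and 5 reached 20 CPM, and all 5 were at least 2-fold higher in the members. Clec7a, the beta-glucan receptor, was at 24.5 CPM in members and 0.239 CPM in sum-0 cells, and Cd14, the co-receptor for bacterial lipopolysaccharide, at 25.1 CPM in members and 1.12 CPM in sum-0 cells. Tyrobp, the signalling adaptor of many myeloid receptors, was at 1047 CPM in members and 264 CPM in sum-0 cells. All 16 lysosome and phagocyte oxidase genes reached 20 CPM and 6 were at least 2-fold higher, none lower. Cybb, the catalytic subunit of the phagocyte oxidase, was at 20.9 CPM in members and 0.367 CPM in sum-0 cells, and Ctsh, a lysosomal cathepsin, at 28.3 CPM in members and 2.46 CPM in sum-0 cells. Genes of mature macrophages were at the floor: C1qa, C1qc, Mertk and Cd5l had no UMI in the members, and no macrophage gene reached 20 CPM.

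**Figure D1:**
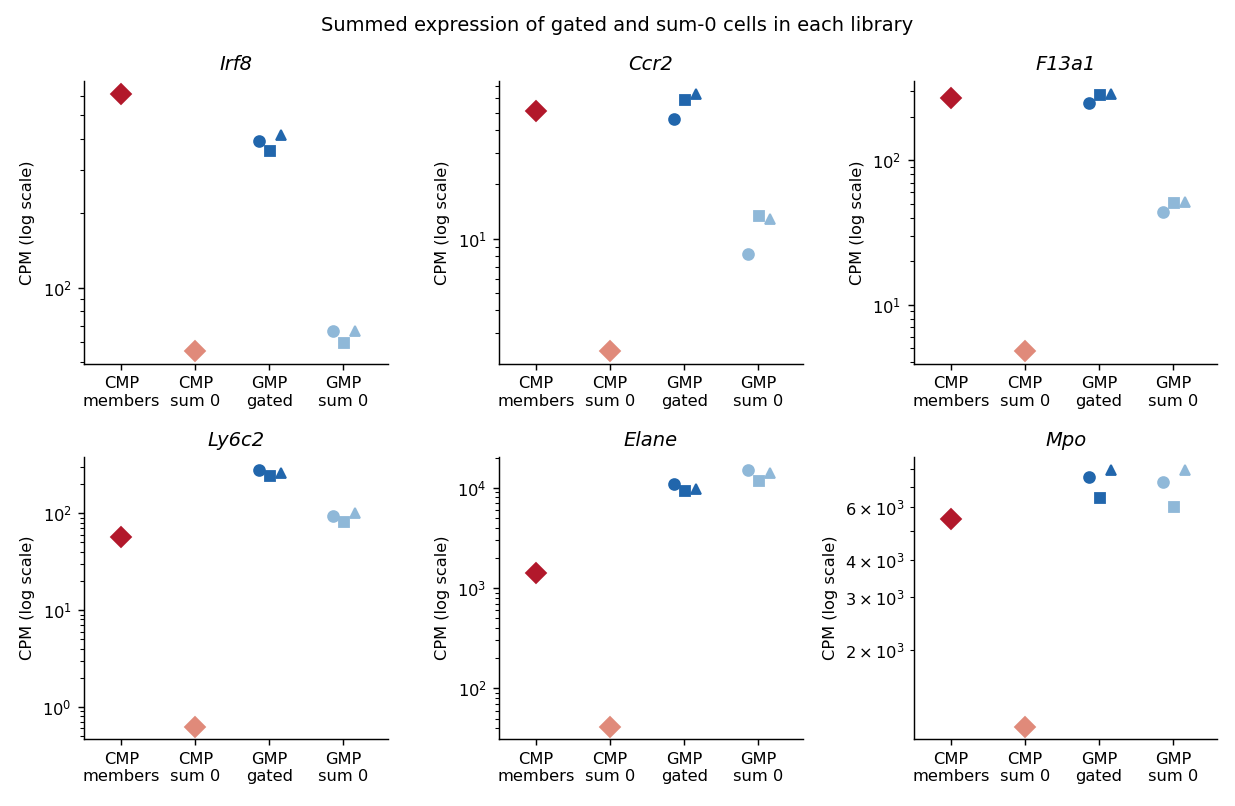
Summed CPM (log axes) of 6 genes in gated and sum-0 cells; each point is 1 library, diamonds are CMP and circles, squares and triangles are GMP replicates 1, 2 and 3. Irf8, Ccr2 and F13a1 of CMP members sit near the GMP gated cells, whereas Elane of members (1427 CPM) lies between CMP sum-0 cells (41.6 CPM) and all GMP points.

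Granule genes shared by neutrophil and monocyte precursors were also high in the members. All 12 genes of the granulo-monocytic list reached 20 CPM, of which 7 were at least 2-fold higher and 1 (Nkg7) 2-fold lower, with a median log2 ratio of 1.26. Elane was at 1427 CPM in members and 41.6 CPM in sum-0 cells, Prtn3, proteinase of the same granules, at 4563 CPM in members and 498 CPM in sum-0 cells, and Mpo, myeloperoxidase, at 5478 CPM in members and 1106 CPM in sum-0 cells. The 762 erythroid CMP cells outside the members held 23.1 CPM of Elane, 188 CPM of Prtn3 and 351 CPM of Mpo, below the levels of the members. Of the granule genes Elane, Prtn3, Ctsg and Mpo together, 435 of 439 members held at least 5 UMIs. The same erythroid cells held a median of 3 Mpo and 2 Prtn3 UMIs at a median depth of 12635.5 UMIs. How many of them held at least 5 was not counted, so the 435 does not set members apart. Hp, the haptoglobin gene, was at 140 CPM in members and 5.13 CPM in sum-0 cells, and Anxa3, an annexin of granulocytes and monocytes, at 110 CPM in members and 4.92 CPM in sum-0 cells. Cebpd, a C/EBP transcription factor of the late myeloid programme, was at 55.1 CPM in members and 7.53 CPM in sum-0 cells.

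The gate sum, split into bins among CMP cells with fewer than 3 Dntt UMIs, went with a graded change in these genes. Irf8 was at 33.1, 78.5, 301, 481, 649 and 774 CPM in cells with gate sums of 0, 1 to 2, 3 to 4, 5 to 9, 10 to 19 and 20 or more. F13a1 followed with 4.09, 11.0, 50.5, 137, 323 and 418 CPM over the same bins. Elane levelled off inside the gate, at 45.3, 124, 418, 1239, 1571 and 1478 CPM. In GMP replicate 2 the order of Elane was the other way, with 11602 CPM at a sum of 0 and 7280 CPM at 20 or more, and GMP replicates 1 and 3 gave the same order. The bins held 4261, 1153, 165, 188, 187 and 64 CMP cells, and their median depth went up with the sum, at 8940, 11569, 15036, 16873, 19879 and 26311.5 UMIs. The part of depth in the gradient was not tested.

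**Figure D2:**
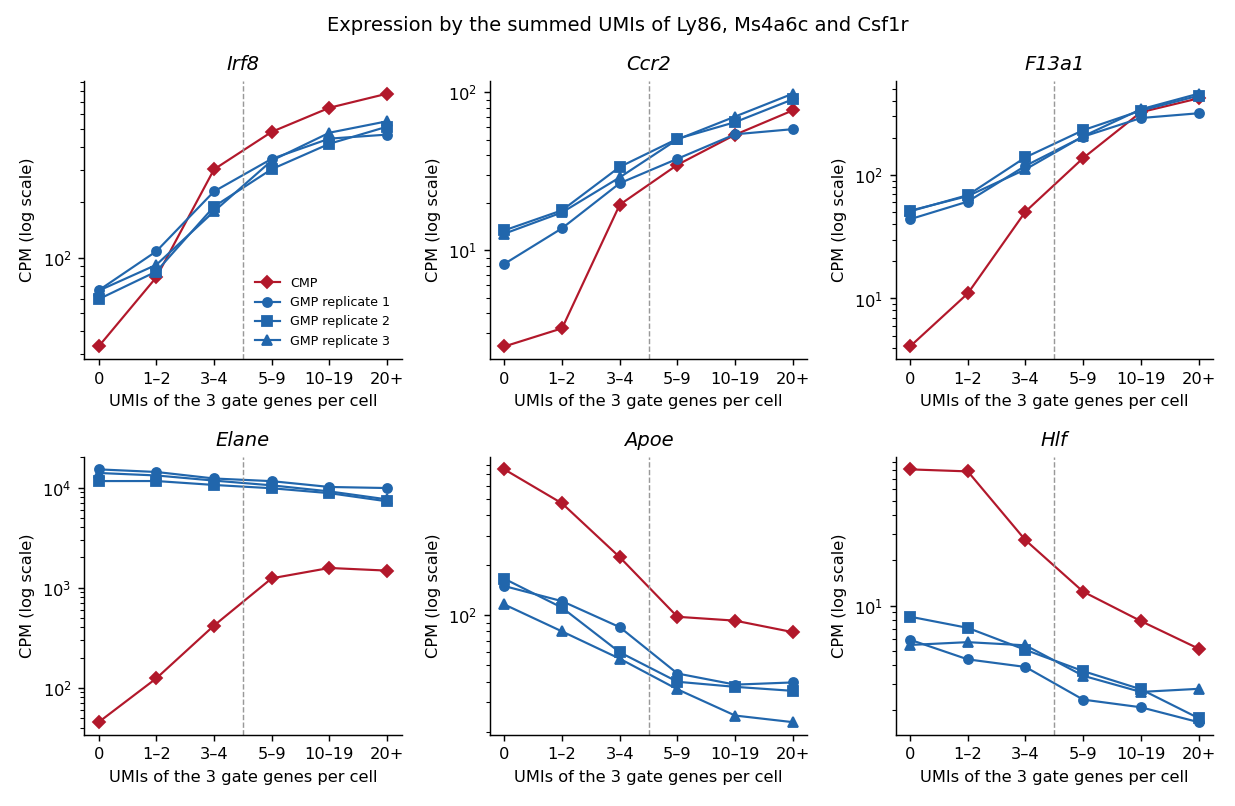
CPM (log axes) of 6 genes by the summed UMIs of the 3 gate genes per cell, for cells with fewer than 3 Dntt UMIs; each line is 1 library and the dashed line marks the gate at 5. In CMP, Elane was at 45.3 CPM at a sum of 0 and 1478 CPM at 20 or more, whereas it was lower at high sums in all 3 GMP libraries.

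The members were not alike in Elane. Of the 439, 68 (15.5%) held no Elane UMI, 169 (38.5%) held 1 to 9 and 202 (46.0%) held 10 or more, with a median of 7 UMIs. In sum-0 cells the median was 0, and in GMP gated cells it was 145, 141 and 159 UMIs. In members with 0, 1 to 9 and 10 or more Elane UMIs, Irf8 was at 774, 673 and 512 CPM, so that it was highest where Elane was absent. Ly6c2 ran the other way, at 8.89, 15.3 and 105 CPM, as did Ms4a3, a granulo-monocytic MS4A family member, at 9.78, 17.0 and 189 CPM, and Hp at 30.2, 77.8 and 222 CPM. Flt3, the receptor of early and dendritic progenitors, was at 56.9, 49.7 and 18.9 CPM. F13a1 was at 122 CPM in the members without Elane and at 292 CPM in both other classes. Median depth was 15564.5, 19443 and 20819 UMIs over the 3 classes, and its part was not tested.

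**Figure D3:**
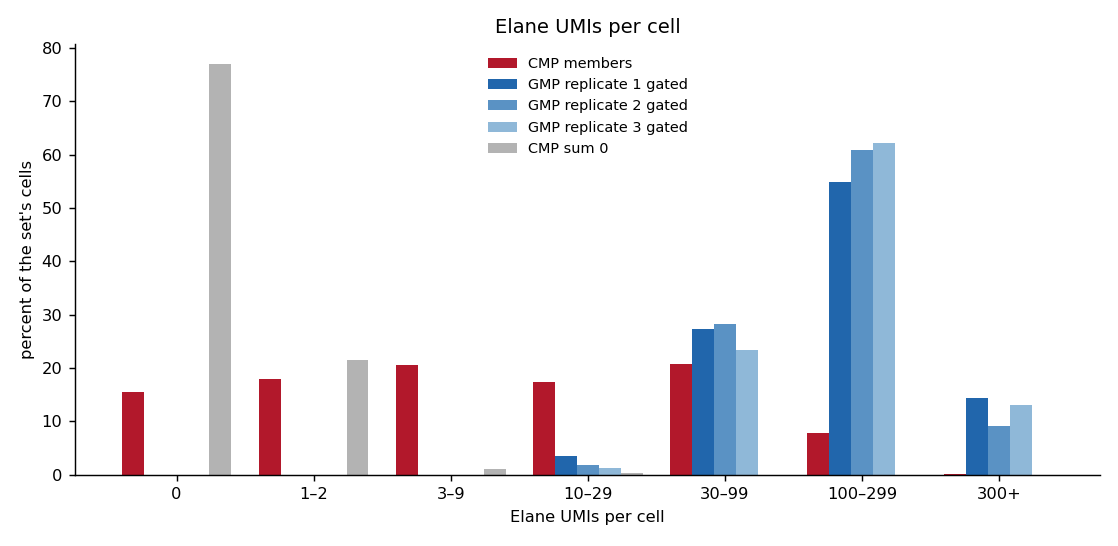
Percent of cells (y axis) by Elane UMIs per cell (x axis) in CMP members, the gated cells of each GMP library and CMP sum-0 cells. CMP members spread over the classes with 15.5% at 0, most GMP gated cells hold 30 or more, and 76.9% of CMP sum-0 cells hold none.

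For Cd74 and Pf4 a few members carried most of the UMIs, and the sum over members does not describe the other cells. Cd74, the MHC class II invariant chain, had 265 UMIs in the members, of which 96.6% were in 6 cells with 10 or more. These 6 cells held no Elane and no Csf1r, and had 18181 CPM of Cst3, 2491 CPM of H2-Aa, 487 CPM of Id2 and 235 CPM of Batf3, genes high in conventional dendritic cells. Their Irf8 was at 1318 CPM, their median depth 9297 UMIs, and none was a called doublet. In the other 433 members Cd74 was at 1.01 CPM, against 3.47 CPM in sum-0 cells, so the higher Cd74 of the sum over members (29.7 CPM) rests on 6 cells. H2-Aa was at 2.81 CPM and Batf3 at 1.01 CPM in those 433 members. H2-Eb1 was at 361 CPM in the 6 cells and 0.113 CPM in the 433. Counts over the dendritic cell and MHC class II lists were not repeated without the 6 cells. Pf4, a platelet chemokine, had 76.2% of its 1301 UMIs in 6 other members, 3 of them called doublets, with a median of 38514.5 UMIs. In the remaining 433 members Pf4 was at 35.4 CPM, against 505 CPM in sum-0 cells.

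Dendritic and antigen presentation genes were mixed in the members. Of 16 dendritic cell genes 5 reached 20 CPM, with 1 at least 2-fold higher, Cst3, at 1303 CPM in members and 485 CPM in sum-0 cells. Tcf4, the transcription factor of plasmacytoid dendritic cells, was at 90.9 CPM in members and 116 CPM in sum-0 cells, and Siglech, a defining gene of those cells, had UMIs in 3 members. Of 7 MHC class II genes 4 reached 20 CPM, with 2 higher and 1 lower by 2-fold. H2-DMb1, a chaperone of peptide loading, was at 22.4 CPM in members and 0.974 CPM in sum-0 cells, and H2-DMa at 242 CPM in members and 156 CPM in sum-0 cells.

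Genes of the other CMP fates were lower in the members. All 6 erythroid genes at 20 CPM or more were at least 2-fold lower in members than in sum-0 cells, and the 12 genes of the list summed to 113 CPM in members and 732 CPM in sum-0 cells. Car1, carbonic anhydrase of red cells, was at 18.7 CPM in members and 229 CPM in sum-0 cells. Of 6 megakaryocyte genes at that level 5 were lower, including Gp9, a platelet glycoprotein, at 5.15 CPM in members and 22.2 CPM in sum-0 cells. Gata2, a transcription factor of stem, mast and megakaryocyte cells, was at 18.8 CPM in members and 113 CPM in sum-0 cells, and Gata1, the erythroid regulator, at 4.59 CPM in members and 43.6 CPM in sum-0 cells. Mcpt8, a basophil protease, differed from these genes, with 51.4 CPM in members and 12.6 CPM in sum-0 cells. Of the 3 basophil and mast cell genes at 20 CPM or more, it was the 1 that was 2-fold higher, and 2 were 2-fold lower. Cpa3, of the same list, was at 31.0 CPM in members and 112 CPM in sum-0 cells, and the list summed to 121 and 286 CPM. Of 4 genes of the list together, 29 members (6.61%) held 5 or more UMIs, a count that was not made in sum-0 cells.

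Stem and multipotent genes were lower too. All 9 of the 11 that reached 20 CPM were at least 2-fold lower, with a median log2 ratio of -2.19. Hlf, a transcription factor of stem cells, was at 9.06 CPM in members and 77.0 CPM in sum-0 cells, and Mecom, another, at 3.69 CPM in members and 30.9 CPM in sum-0 cells. Apoe, apolipoprotein E, was at 92.1 CPM in members and 628 CPM in sum-0 cells, and Ctla2a, a cathepsin inhibitor, at 230 CPM in members and 1504 CPM in sum-0 cells. Car2, Gimap1, Sdsl, Slc22a3, Gnb4, Myct1, Zfp36l1 and Lat, which completed the 12 lowest ratios at 50 CPM or more with Car1, Hlf, Apoe and Ctla2a, had ratios of 0.110 to 0.163. Of 14 lymphoid-primed and B cell genes 3 reached 20 CPM and none of these passed 2-fold. Satb1, a chromatin organiser, was at 67.6 CPM in members and 69.1 CPM in sum-0 cells. Il7r, the interleukin 7 receptor of lymphoid progenitors, stayed below 20 CPM in both sets, at 2.69 CPM in members and 17.4 CPM in sum-0 cells. At 3000 UMIs per cell it was seen in 1.37% of members (95% interval 0.503% to 2.95%), against 3.71% of sum-0 cells (3.20% to 4.27%). Those sum-0 cells include cells with 3 or more Dntt UMIs, which members could not hold, and the share was not repeated without them. The list summed to 168 CPM in members and 220 CPM in sum-0 cells, but to 114 CPM in the sum-0 cells with fewer than 3 Dntt UMIs, the condition that members also met. No member held 5 UMIs of Il7r, Rag1, Ebf1 and Vpreb1 together.

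Immediate early genes were lower in members, and the cell cycle genes were near level. Of 16 immediate early genes 13 were at least 2-fold lower, and their sum was 4128 CPM in members and 9207 CPM in sum-0 cells. Nr4a1, an orphan nuclear receptor induced by stimulation, was at 20.03 CPM in members and 94.6 CPM in sum-0 cells. Against sum-0 cells matched by total UMIs, 6 of 15 were 2-fold lower, so the count was smaller at matched depth. None of 16 S phase and none of 16 G2M genes passed 2-fold: Rrm2, a subunit of ribonucleotide reductase, was at 64.3 CPM in members and 33.9 CPM in sum-0 cells, and Top2a, topoisomerase of dividing cells, at 260 CPM in members and 264 CPM in sum-0 cells.

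**Figure D4:**
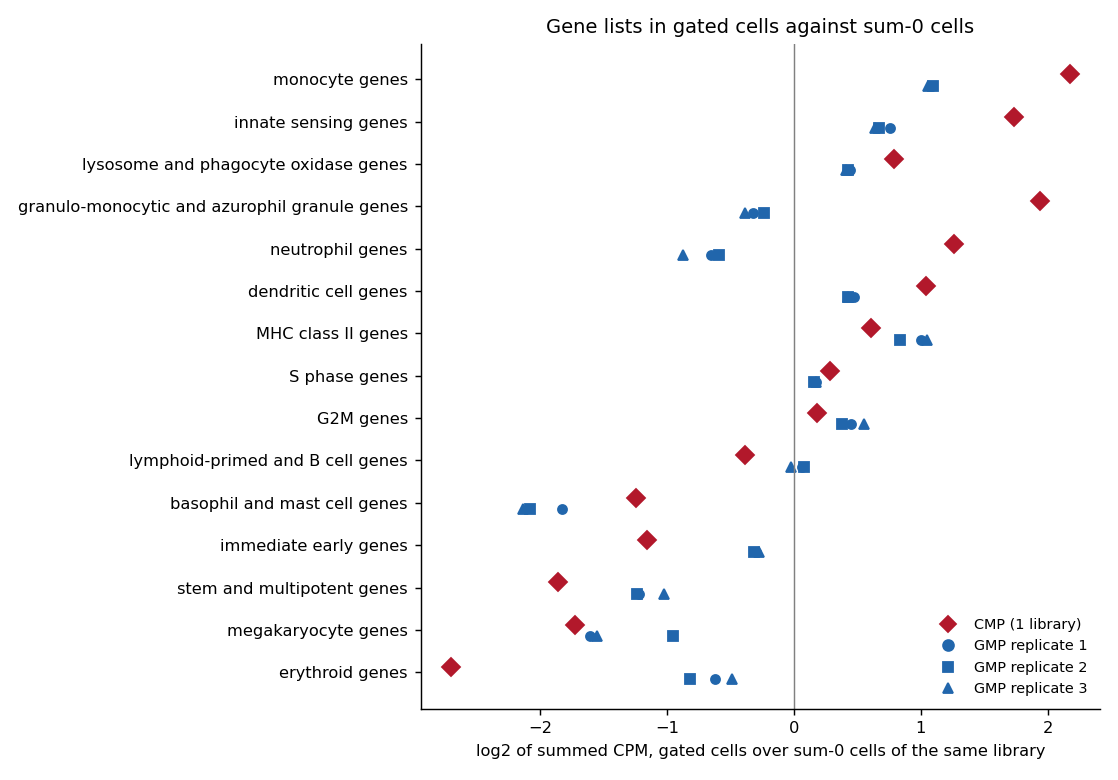
Log2 ratio of summed CPM, gated cells over sum-0 cells of the same library (x axis), for 15 gene lists; the diamond is CMP and the other marks are the 3 GMP libraries. Monocyte genes lie right of 0 in all 4 libraries, and granule genes lie right of 0 in CMP and left of 0 in the 3 GMP libraries.

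The transcripts of the sorting antigens were read next to the gate. Kit was at 31.0 CPM in members and 69.5 CPM in sum-0 cells, and Cd34 at 271 CPM in members and 243 CPM in sum-0 cells. Fcgr3, which encodes CD16, was at 10.6 CPM in members and 9.22 CPM in sum-0 cells, and Fcgr2b, which encodes CD32, at 13.8 CPM in members and 5.14 CPM in sum-0 cells. In GMP gated cells Fcgr3 averaged 34.8 ± 4.65 CPM and Fcgr2b 28.8 ± 4.90 CPM (SD, n = 3), above the members in all 3 libraries. CD16/32 was an antigen of the sort, and the 2 genes may share reads. Csf2ra, a receptor chain for granulocyte-macrophage colony-stimulating factor, was at 45.3 CPM in members and 38.4 CPM in sum-0 cells, and Il6ra at 41.9 CPM in members and 12.4 CPM in sum-0 cells.

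Members of CMP were next compared with the gated cells of the 3 GMP libraries, which asks how cells chosen on the same 3 transcripts differ between the sorts. The counts were summed per library and tested across all genes in edgeR by the quasi-likelihood method, and p-values carry the Benjamini-Hochberg adjustment. Of 15520 genes, 525 were higher (3.38%) and 353 lower (2.27%) in CMP members, and the lone CMP library is assumed to vary like the GMP libraries, which leave 2 residual degrees of freedom. With scaling by total UMIs the counts were 763 higher and 265 lower, and the median log2 change of all genes was 0.11 instead of -0.01. Without GMP replicate 1 the counts were 2129 and 2008. GMP gated cells had median depths of 14526, 15882.5 and 17568 UMIs, below the 19078 UMIs of CMP members. Called doublets made up 6.38% of CMP members and 12.7%, 14.6% and 10.6% of GMP gated cells. With called doublets removed from both, 487 genes were higher and 349 lower.

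Irf8, Ccr2 and F13a1 were not called different between the sorts. Irf8 was at 609 CPM in CMP members and 392, 359 and 417 CPM in GMP gated cells (log2 fold change 0.53 ± 0.14 SE, adjusted p = 0.074). Ccr2 was at 51.1 CPM in CMP members and 46.1, 58.7 and 63.6 CPM in GMP gated cells (-0.25 ± 0.18, adjusted p = 0.458). F13a1 was at 271 CPM in CMP members and 247, 283 and 288 CPM in GMP gated cells (-0.13 ± 0.14, adjusted p = 0.64). For Ccr2 and F13a1 the CMP value lay inside the range of the GMP libraries, and for Irf8 above all 3. Irf8 passed 0.05 under 6 of the alternative settings, over all of which its adjusted p ran from 1.15e-06 to 0.357. Over the whole monocyte list 2 of 28 genes were higher and 3 lower, with a median of -0.15, against -0.01 over all genes.

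Ly6c2 and the granule and neutrophil genes were lower in CMP members than in GMP gated cells. Ly6c2 was at 57.1 CPM in CMP members and 284, 246 and 262 CPM in GMP gated cells (-2.33 ± 0.18, adjusted p = 0.000406). Elane was at 1427 CPM in CMP members and 10865, 9265 and 9642 CPM in GMP gated cells (-2.92 ± 0.24, adjusted p = 0.00048). Of 12 granule genes 9 were lower and none higher, with a median of -1.14, and Prtn3 was among them (-1.17 ± 0.20, adjusted p = 0.0148). Mpo, with 5478 CPM in CMP members and a mean of 7307 ± 801 CPM in GMP gated cells (SD, n = 3), was not called (-0.54 ± 0.20, adjusted p = 0.172).

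Of 13 neutrophil genes, 7 were lower and none higher in CMP members. S100a9, a calcium-binding alarmin subunit abundant in neutrophils, was at 1.01 CPM in CMP members and 58.6 ± 27.8 CPM in GMP gated cells, and its partner S100a8 at 1.68 CPM in CMP members and 73.3 ± 21.8 CPM in GMP gated cells. Cebpe, the C/EBP factor of the later granulocyte path, was at 14.7 CPM in CMP members and 81.8 ± 6.87 CPM in GMP gated cells. Pglyrp1, a peptidoglycan recognition protein, was at 5.15 CPM in CMP members and 97.5 ± 18.04 CPM in GMP gated cells, and Ms4a3 at 97.2 CPM in CMP members and 943 ± 119 CPM in GMP gated cells. Dstn, Nkg7 and Ly6c1 completed the 10 with the largest decrease among genes at 50 CPM or more in the higher group, at log2 changes of -2.83, -2.63 and -2.61. In the GMP libraries, cells with erythroid transcripts also held granule RNA. Their 9, 25 and 6 such cells had a median of 19, 19 and 27.5 Elane UMIs at median depths of 9373, 8739 and 12402.5 UMIs, and their summed levels were 6903, 2254 and 2102 CPM. The 6903 CPM of the 9 cells of GMP replicate 1 stands well above what their median UMIs give, so the sum does not describe a typical one of them. All of these GMP cells had Elane UMIs, whereas 26.8% of the erythroid CMP cells did. The source of this RNA, and its part in the lower granule and neutrophil genes of CMP members, was not tested.

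Stem cell and megakaryocyte genes were higher in CMP members than in GMP gated cells, and so was the sum of the erythroid list. That list summed to 113 CPM in CMP members and 60.0, 60.4 and 66.6 CPM in GMP gated cells, with a median log2 change of 1.80. Car1, of that list, was at 18.7 CPM in CMP members and 0.296, 1.85 and 0.257 CPM in GMP gated cells. Of 11 stem and multipotent genes 8 were higher and none lower, with a median of 1.55. Adgrg1, an adhesion G protein-coupled receptor of stem cells, was at 67.3 CPM in CMP members and 18.4, 20.3 and 17.1 CPM in GMP gated cells (1.73 ± 0.15, adjusted p = 0.000586). Ctla2a was at 230 CPM in CMP members and 28.8, 26.9 and 17.6 CPM in GMP gated cells (3.11 ± 0.24, adjusted p = 0.000406), and Sox4, a transcription factor of early progenitors, at 622 CPM in CMP members and 183 ± 15.4 CPM in GMP gated cells. Of 9 megakaryocyte genes 8 were higher, and Pf4 was among the genes called (3.74 ± 0.77, adjusted p = 0.0269), with 76.2% of its UMIs in the 6 members named above. Other genes of the list were also high in those 6 members. Itga2b was at 182 CPM in them and 6.19 CPM in the remaining 433 members, and Vwf at 114 and 0.574 CPM. At 3000 UMIs per cell, Pf4 was seen in 9.79% of members and 11.2% of erythroid CMP cells. The count of 8 rests on sums over all members and was not repeated without those 6. Nrgn, Rgs1, Marcksl1, Smad7, Mta3 and Dusp2 completed the 10 with the largest increase at 50 CPM or more, at log2 changes of 1.63 to 2.48.

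Most genes of the lymphoid, dendritic cell and MHC class II lists were not called. The counts rest on sums over all members and were not repeated without the 6 members that held most Cd74. Of 11 lymphoid-primed and B cell genes tested 3 were higher in CMP members, none was lower and 8 did not pass. Satb1, among those higher, was at 67.6 CPM in CMP members and 21.1 ± 1.03 CPM in GMP gated cells (1.55 ± 0.14, adjusted p = 0.000586). Of 12 dendritic cell genes 4 were higher and none lower, among them Tcf4 (0.93 ± 0.17, adjusted p = 0.0188). Of 7 MHC class II genes 3 were higher and none lower. Cd74, one of the 3, at 29.7 CPM in CMP members and 9.35 ± 3.21 CPM in GMP gated cells, had a log2 change of 1.54 ± 0.29 (adjusted p = 0.0208), but 96.6% of its UMIs were in 6 of the 439 members, and with a gate sum of at least 10 the log2 change was -0.42. Cybb was at 20.9 CPM in CMP members and 53.3, 55.7 and 63.2 CPM in GMP gated cells (-1.57 ± 0.17, adjusted p = 0.00138), so the phagocyte oxidase gene was lower in the members, below all 3 GMP libraries. Of the sorting antigens Cd34 was higher in CMP members (1.22 ± 0.14, adjusted p = 0.0017), Fcgr3 (-1.82 ± 0.22, adjusted p = 0.00236) and Fcgr2b (-1.18 ± 0.21, adjusted p = 0.0162) were lower, and Kit was not called (-0.34 ± 0.18, adjusted p = 0.324).

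**Figure D5:**
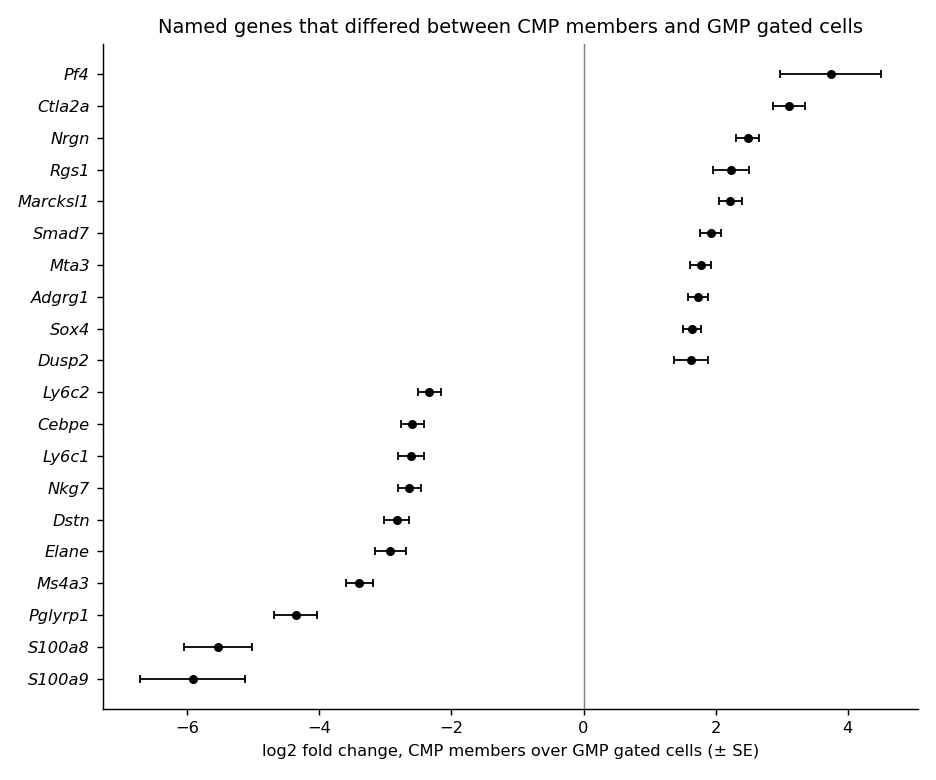
Log2 fold change with its SE (x axis) of 10 genes in each direction between CMP members and GMP gated cells, as fitted by edgeR: those of largest change past the threshold, where the higher group reached 50 CPM. Of the genes drawn, Pf4 has the highest value (3.74) and the widest error among those that were higher, and S100a9 the lowest value (-5.92).

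Within GMP the gate difference could be tested over 3 libraries. GMP cells were also split on UMIs of the gate genes, so differences in genes that go with them are set in part by the rule. The p-values measure how steady these differences were over the libraries. Of 14277 genes, 3105 were higher (21.7%) and 2955 lower (20.7%) in gated than in sum-0 cells of the same library, with the library as a block. Called doublets made up 12.7%, 14.6% and 10.6% of GMP gated cells and 2.33%, 2.41% and 1.24% of GMP sum-0 cells, and with them removed 3194 genes were higher and 3001 lower. Against GMP sum-0 cells drawn toward the same total UMIs, 2588 were higher and 2500 lower, but the draw did not level depth. Per library, the drawn cells had medians of 11395, 13144 and 13857 UMIs, against 14526, 15882.5 and 17568 UMIs in gated cells. Irf8 was at 392, 359 and 417 CPM in GMP gated cells and 66.6, 59.8 and 66.4 CPM in GMP sum-0 cells (2.60 ± 0.03, adjusted p = 2.92e-36). Ccr2 (2.28), F13a1 (2.49), Emb (1.85) and Ly6c2 (1.52) were also higher, in 3 of 3 libraries each. Of the 28 monocyte genes 24 were higher and 2 lower, with a median of 1.48.

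Among genes at 50 CPM or more in gated or sum-0 cells, those of largest increase beside these were Ighm (2.46), Prdx4 (2.24), Rassf4 (1.95) and Cybb (1.84), the first of which encodes the immunoglobulin mu chain. In CMP, Ighm was at 192 CPM in members and 98.8 CPM in sum-0 cells. With the same limit of 50 CPM, the 8 largest decreases in GMP gated cells held basophil, mast cell, eosinophil and neutrophil genes: Gzmb (-3.46), Cma1 (-3.15), Cpa3 (-2.73), S100a9 (-2.16) and Prg2 (-1.99), with Rgs1, Apoe and Ctla2a at -1.97 to -1.94. Elane was lower in GMP gated cells, at 10865, 9265 and 9642 CPM, against 15176, 11592 and 13975 CPM in GMP sum-0 cells (-0.44 ± 0.03, adjusted p = 1.12e-14), a call that was lost without the library block. Klf4 was higher, at 17.5, 19.6 and 20.7 CPM in GMP gated cells and 2.33, 3.29 and 3.58 CPM in GMP sum-0 cells (2.63 ± 0.08, adjusted p = 1.85e-23).

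The log2 difference between gated and sum-0 cells in CMP was then set against that in GMP in a fit of all 8 sums. There CMP has 1 pair of sums and GMP 3, with the library as a block. Cells were split on the gate genes in both sorts, so these differences, those of Irf8 and Ccr2 among them, are set in part by the rule. The calls describe the members and do not test their name. Of 16544 genes, 2219 had a higher log2 difference (gated over sum-0 cells, signed) in CMP (13.4%) and 1601 a lower one (9.68%), and with scaling by total UMIs the counts were 1309 and 3053, with the median of all genes at -0.20 instead of -0.04. The sums of sum-0 cells differ greatly between the sorts, since Elane was at 41.6 CPM in CMP sum-0 cells and 13581 ± 1824 CPM in GMP sum-0 cells, and each gate difference depends on both of its sets. Elane differed by 5.71 ± 0.06 on the log2 scale, being higher with the gate in CMP and lower in GMP. Irf8 (1.02 ± 0.06) and Ccr2 (2.26 ± 0.15) had larger gate differences in CMP, with the same direction in both sorts. Klf4 went the other way (-2.92 ± 0.16), as its summed level was 2-fold or more higher with the gate in each GMP library and not in CMP. In CMP, Klf4 was at 15.3 and 6.73 CPM at gate sums of 1 to 2 and 3 to 4. Inside the gate it was at 7.37, 9.47 and 24.1 CPM at sums of 5 to 9, 10 to 19 and 20 or more. The last value, of 64 cells, lay above the 15.7 CPM of CMP sum-0 cells. GMP cells with sums of 20 or more held 22.8, 29.2 and 37.9 CPM. The sum over members thus does not describe Klf4 at the highest gate sums. All 16 immediate early genes had a lower signed gate difference in CMP, where the list summed to 4128 CPM in members and 9207 CPM in sum-0 cells. In GMP it summed to 2841, 2021 and 2288 CPM in gated cells and 3503, 2511 and 2776 CPM in sum-0 cells, a smaller drop with the gate. These sums were not matched by depth. In CMP, 6 of 15 immediate early genes were 2-fold lower against sum-0 cells matched by total UMIs, and 13 of 16 without matching. Of 12 granule genes 10 had a higher signed gate difference in CMP.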

How the data were processed

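The deposited files give, for every barcode, raw UMI counts by gene, from droplet libraries of 3′ version 3 chemistry (10x Genomics). Per the submitters' processing notes the authors used the mm10 build, Cell Ranger 3.1.0 and Seurat 3.1.1. Cell Ranger 6.1.1 wrote the matrices, per the file headers, and how barcodes were kept before deposit was not given in the sources used here. Gene identifiers (55450) match GENCODE release M21. Promoter sequences are from RefSeq (GRCm38.p6).

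Cells had to show at least 500 genes, at least 1000 UMIs and at most 10% mitochondrial UMIs, and 7312 of 7389 CMP barcodes stayed. Called doublets were kept in the main values (rate 0.8% per 1000 barcodes; scikit-learn 1.9.0). The raw UMIs of each set were summed per library. The members and lists were chosen with earlier results of these data known.

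CMP members were compared with sum-0 cells by ratios with exact Poisson 95% intervals and no test, since CMP has 1 library. Tests over libraries used edgeR 4.0.16 (R 4.3.3, limma 3.58.1) with the quasi-likelihood method, TMM factors and filterByExpr. The prior count was 2, and calls were made at an adjusted p of 0.05 (Benjamini-Hochberg). GMP gated and sum-0 cells were paired by library, since they come from the same library. Tests were also run on simulated counts, drawn with the same spread for CMP and GMP sums. Such counts cannot check whether the lone CMP library varies like the GMP libraries. Thinning drew 3000 UMIs per cell. Python 3.11.15, numpy 2.4.6, scipy 1.17.1 and pandas 2.3.3 were used.

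Genes were named by a rule: label markers, sorting antigens, up to 4 genes of each list, the 12 highest and lowest ratios in CMP, the 10 largest changes each way against GMP gated cells, the 8 each way within GMP and the 6 each way between the gate differences, at 50 CPM or more. Predicted, mitochondrial and gate genes and Dntt took no place in these ranks. A gene that the rule names is not reported here. Klf4, Siglech, Il7r and the genes given for subsets of members were chosen after their values were seen.

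Alternatives were gate sums of 3 and 10, a gate per 10000 UMIs, no Dntt condition, doublets removed, all barcodes, cells matched by depth or gate sum, the mean over cells, other scalings, the DESeq2 1.42.0 Wald test, no filter, no block, thinned sums, thinning to 2000 UMIs, a 4-fold limit and each GMP replicate left out. A gate on Ly86 and Csf1r alone was chosen after seeing the data.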

Additional observations from a re-analysis of the deposited data

Results flagged for a closer look

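The test of the difference between gate differences called 2219 genes with a higher signed log2 value in CMP than in GMP and 1601 with a lower one. The 6 highest among genes at 50 CPM or more in any of the 4 group means were Elane (5.71), Igsf6 (5.50), Ly6c2 (5.00), Trem3 (4.86), Anxa3 (4.76) and Hp (4.49), of which Igsf6 was at 42.7 CPM in CMP members and 1.07 CPM in CMP sum-0 cells, whereas all 6 averaged 68.7 CPM or more in GMP sum-0 cells. The label markers followed with 2.26 for Ccr2 and 1.02 for Irf8. The 6 lowest at that limit were Wfdc17 (-2.07), Prdx4 (-2.01), Phlda1 (-1.91), Osbpl1a (-1.70), Hlf (-1.69) and Itih5 (-1.44). Prdx4, a peroxiredoxin of the endoplasmic reticulum, was higher in GMP gated cells at 56.8, 55.9 and 51.9 CPM, against 9.91, 15.5 and 8.38 CPM in GMP sum-0 cells, and was at 83.1 CPM in CMP members and 79.3 CPM in CMP sum-0 cells. Klf4, chosen after its values were seen, had -2.92. CMP enters this test with 1 library, and the spread is that of the gate difference over the GMP libraries. Since the gate chose the cells, these values are set in part by the rule.

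The gate was also met by 100 of 8033 LMPP cells, or 1.24%, a sort that enters none of the tests, and a count of 0 would allow up to 0.0374%. These 100 cells held 313 CPM of Irf8, 65.9 CPM of Ccr2, 342 CPM of F13a1 and 3063 CPM of Elane, and 9 of them were called doublets. Erythroid LMPP cells held 70.5 CPM of Elane.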

How the results depend on the processing

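The share of CMP cells in the gate was 8.26% at a gate sum of 3, 3.43% at 10, 3.94% at 5 per 10000 UMIs, 6.80% without the Dntt condition and 4.92% with Ly86 and Csf1r alone at 2 UMIs, a gate chosen after seeing the data. At 4-fold, 49 genes were higher and 92 lower in CMP members than in sum-0 cells. Between CMP members and GMP gated cells, the genes higher and lower were 796 and 570 at a gate sum of 3, 916 and 995 without the filter on low counts, 305 and 223 with the gate per 10000 UMIs, and 423 to 2129 and 289 to 2008 with a GMP replicate left out, the highest without replicate 1. Within GMP they were 1835 and 1674 by the DESeq2 Wald test and 809 and 1024 without the replicate block. Between the gate differences they were 1338 and 346 by the DESeq2 Wald test, 182 and 41 without the replicate block, and 1309 and 3053 with scaling by total UMIs. The causes were not tested. The share of members with a UMI at 2000 UMIs per cell was 61.5% for Irf8, 8.43% for Ccr2 and 53.3% for Elane. Cd74, higher in CMP members than in GMP gated cells, reversed to -0.42 at a gate sum of 10.

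Of the genes followed, 604 of 624 gene and setting pairs between CMP members and GMP gated cells kept their side of the threshold and direction, 11 newly passed it and 8 no longer passed it, among them Pf4 and Car1 with the DESeq2 Wald test. Without the replicate block, Elane, Prtn3 and Clec12a lost their call within GMP, and Hlf and Phlda1 theirs between the gate differences. No ratio within CMP changed direction, and 233 of 549 moved beyond their counting interval.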
